A study of Homo sapiens with 20 samples.

Results

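X5050 at 100 uM, a compound that lowers the level of the repressor REST, was added in K562 cells to GSK343 at 5 uM, an inhibitor of the histone methyltransferase EZH2, and RNA was taken at 72 h. The comparison takes its libraries by their labels alone: 2 libraries of cells given both drugs for 72 h against 2 of cells given GSK343 for 72 h, 4 of the 20 libraries of the series. The labels do not say whether one drug was given before the other. The other groups used here are X5050 at 100 uM for 72 h, the same 2 drugs together for 8 h and for 24 h at the same doses, and DMSO, the solvent, for 72 h, with 2 libraries each. K562 is an established human erythroleukemia line, and every group here is the same line, with no edit given in the labels. The series' design text calls the replicates biological, and nothing more is said of separate cultures. In the other 8 libraries a silencer was excised or an empty vector used, and they are not used here.

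EZH2 is the catalytic subunit of PRC2, a Polycomb complex that keeps developmental genes silent by methylating lysine 27 of histone H3. REST is a zinc finger repressor that holds down neuronal genes outside neurons through corepressor complexes with histone deacetylases. The comparison asks what X5050 changes when EZH2 inhibition is present in both groups, and the same drug at the same dose against DMSO shows what it changes without it.

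RNA was read as gene counts on the transcribed strand, and levels are given as CPM, the count of a gene scaled to a common library total. The libraries held 22925617 and 27191050 gene counts with both drugs and 26372694 and 31149860 with GSK343. Reads mapping to several places, which are not counted to a gene, made up 26.7% and 26.1% of reads with both drugs and 19.3% and 20.8% with GSK343. The 10 most abundant genes took 12.5% and 12.4% of counts with both drugs and 8.08% and 8.02% with GSK343. GATA1, the erythroid master factor, stood at 143 and 137 CPM with both drugs and 186 and 188 CPM with GSK343, so the line's identity marker was present in all 4 libraries. Levels are relative to each library's normalized total. A lower level therefore cannot be told apart from less of that RNA in a cell or fewer cells that make it.

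The transcripts of the drug targets did not pass the test. EZH2 had 108 and 111 CPM with both drugs and 141 and 114 CPM with GSK343, a log2 difference of -0.23 ± 0.13 (SE, adjusted p = 0.193). REST had 69.3 and 69.5 CPM with both drugs and 62.8 and 67.8 CPM with GSK343, a log2 difference of 0.09 ± 0.13 (SE, adjusted p = 0.631). The groups lay close together in both genes, and for EZH2 the lower GSK343 library stood just above the cells with both drugs. These are RNA levels and say nothing of the REST protein or of H3 methylation.

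Adding X5050 changed a large share of the transcriptome. Of 19224 genes tested with edgeR's quasi-likelihood test, 7578 (39.4%) passed an adjusted p of 0.05, 3628 (18.9%) higher and 3950 (20.5%) lower with both drugs than with GSK343. A difference of over 1 log2 unit was passed by 1698 genes (8.83%) upward and 1777 (9.24%) downward. The median over all tested genes was -0.01 on the log2 scale. Against these shares, NF-kB response genes, metallothioneins, immediate early genes, globins and heat shock chaperones held many higher members, and DNA replication genes, aminoacyl-tRNA synthetases and ATF4 targets many lower ones. With 2 libraries a group, exact permutation has a smallest 2-sided p of 0.333, and each p here comes from a variance model fitted over all genes. Lack of overlap between the groups, stated below for named genes, is therefore a description and not a test. The rule for the largest rises and falls required it, and most other named genes were chosen by low p. The share of all tested genes without overlap is not given here.

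Metallothioneins, small cysteine-rich proteins that bind zinc and copper, made up 6 of the 12 largest rises. MT2A had 245 and 428 CPM with both drugs and 1.13 and 2.10 CPM with GSK343, a log2 fold change of 7.68 ± 0.33 (SE, adjusted p = 3.02e-08). MT1G had 66.95 and 74.02 CPM with both drugs and 0.0708 and 0.278 CPM with GSK343, a log2 fold change of 8.57 ± 0.30 (SE, adjusted p = 4.56e-11). MT1X had 23.97 and 41.2 CPM with both drugs and 0.142 and 0.0617 CPM with GSK343, with 8.30 ± 0.59 (SE, adjusted p = 4.17e-07). All 3 were low with GSK343 and plainly expressed with both drugs. The groups did not overlap, which the rule for the largest rises required. MT1H gave 2360 counts over the libraries with both drugs against 2 over the GSK343 libraries, a ratio of 1459 with a 95% counting interval of 403 to 12056. MT1E gave 1348 counts against 2, a ratio of 833 with an interval of 230.3 to 6889. MT1F had 14.98 and 40.7 CPM with both drugs and 0.248 and 0.370 CPM with GSK343, a log2 fold change of 6.46 ± 0.52 (SE, adjusted p = 9.88e-07). The metallothionein genes resemble each other closely, so reads may be split among them or lost as multiply mapping. The intervals cover counting error only.

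Zinc handling genes outside the family split. SLC30A1, which exports zinc at the plasma membrane, had 512 and 816 CPM with both drugs and 23.1 and 28.4 CPM with GSK343, a log2 fold change of 4.69 ± 0.38 (SE, adjusted p = 2.76e-05). MTF1, the zinc-sensing factor that drives metallothionein genes, had 38.2 and 33.99 CPM with both drugs and 18.4 and 17.04 CPM with GSK343, a log2 fold change of 1.03 (adjusted p = 1.16e-05). The importers SLC39A8 and SLC39A14 and the exporter SLC30A10 were lower, at -0.86, -0.71 and -0.88 on the log2 scale. Of 15 tested genes among the 17 of the metallothionein and zinc list, 11 (73.3%) were called higher and 3 (20%) lower. Several members were high enough for the filter on low counts in libraries with X5050 alone or with both drugs, so their count describes the list and does not test it. The median log2 fold change was 6.46, or 4.21 with genes of at most 3 counts with GSK343 set at their bound or counted ratio.

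The promoters of MT2A and MT1X are shown because both genes were low without X5050 and carry repeated copies of the core of the metal response element that MTF1 binds. Each runs over the 250 bases before the annotated start on the coding strand in RefSeq's GRCh38.p14, chr16:56608334-56608583 for MT2A and chr16:56682220-56682469 for MT1X, both on the plus strand. Capitals mark TGCACNC or TGCGCNC on either strand.
MT2A: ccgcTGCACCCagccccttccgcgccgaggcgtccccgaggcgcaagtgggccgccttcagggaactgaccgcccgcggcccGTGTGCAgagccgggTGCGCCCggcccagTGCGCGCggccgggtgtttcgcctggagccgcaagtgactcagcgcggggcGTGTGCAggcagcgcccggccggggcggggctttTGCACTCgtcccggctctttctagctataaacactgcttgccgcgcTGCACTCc
MT1X: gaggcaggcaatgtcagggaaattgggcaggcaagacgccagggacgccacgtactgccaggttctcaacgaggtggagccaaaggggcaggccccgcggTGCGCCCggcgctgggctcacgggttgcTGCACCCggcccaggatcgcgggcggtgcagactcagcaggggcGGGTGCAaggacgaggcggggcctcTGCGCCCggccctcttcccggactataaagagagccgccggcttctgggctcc
MT2A holds 7 such matches and MT1X 4. In the list, 5 of 9 promoters matched by name (55.6%) hold at least 1, as do 24.7% of all 27305 promoters of the same length, so the letters are common, and a match describes the letters only.

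NF-kB response genes, which encode chemokines, survival factors and the inhibitors of the pathway itself, were higher almost throughout. Of 28 tested members 26 (92.9%) were called higher and the other 2 did not pass, with a median log2 fold change of 2.19. CXCL8, the neutrophil chemokine interleukin 8, had 199.5 and 333 CPM with both drugs and 2.80 and 3.02 CPM with GSK343, a log2 fold change of 6.51 ± 0.26 (SE, adjusted p = 1.99e-09). TNFRSF9, a costimulatory receptor, had 37.4 and 41.1 CPM with both drugs and 1.59 and 1.67 CPM with GSK343, with 4.58 ± 0.19 (SE, adjusted p = 2.36e-10). The NF-kB subunit RELB had 62.9 and 86.8 CPM with both drugs and 2.30 and 3.95 CPM with GSK343, with 4.57 ± 0.24 (SE, adjusted p = 4.4e-09). In all 3 the libraries with both drugs lay far above the GSK343 libraries. SOD2, the mitochondrial superoxide dismutase, stood at 487 and 524 CPM with both drugs and 155 and 157 CPM with GSK343, with 1.70 ± 0.12 (SE, adjusted p = 4.31e-08). NFKBIA, the inhibitor that holds NF-kB in the cytoplasm, had 199 and 336 CPM with both drugs and 14.03 and 20.6 CPM with GSK343, a log2 fold change of 3.95 (adjusted p = 1.65e-06). The lowest member of the list stood at 0.18 on the log2 scale.

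The promoters of CXCL8 and NFKBIA are shown because both genes were low with GSK343 and hold the letters of the NF-kB motif close to the start. They cover the 250 bases before the start on the coding strand in RefSeq's GRCh38.p14, chr4:73740319-73740568 on the plus strand for CXCL8 and chr14:35404750-35404999 on the minus strand for NFKBIA, with GGNNTTTCC on either strand in capitals.
CXCL8: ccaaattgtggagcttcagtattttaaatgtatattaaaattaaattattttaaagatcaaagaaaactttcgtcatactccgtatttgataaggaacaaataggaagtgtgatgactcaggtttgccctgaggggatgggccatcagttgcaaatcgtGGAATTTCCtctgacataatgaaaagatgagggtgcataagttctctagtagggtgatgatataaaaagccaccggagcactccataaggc
NFKBIA: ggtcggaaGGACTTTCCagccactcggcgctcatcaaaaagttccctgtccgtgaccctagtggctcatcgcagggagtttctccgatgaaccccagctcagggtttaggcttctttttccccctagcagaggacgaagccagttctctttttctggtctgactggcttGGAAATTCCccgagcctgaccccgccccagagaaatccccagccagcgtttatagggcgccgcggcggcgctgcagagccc
The match in CXCL8 begins 91 bases before the start, and those in NFKBIA 242 and 81 bases before it. Of 23 list promoters matched by name, 15 (65.2%) hold the motif, and of all 27305 promoters 5.48% do.

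Immediate early genes, the transcription factors and regulators that answer signals within minutes, were higher in 18 (78.3%) of 23 tested and lower in 1, with a median of 1.63. ARC, a cytoskeleton-associated protein of neurons, had 149 and 140.2 CPM with both drugs and 0.496 and 1.14 CPM with GSK343, a log2 fold change of 7.43 ± 0.26 (SE, adjusted p = 7.72e-11). KLF6, a zinc finger factor, had 684 and 784 CPM with both drugs and 78.4 and 72.2 CPM with GSK343, with 3.29 ± 0.17 (SE, adjusted p = 2.81e-09). FOSB, a partner of JUN in AP-1, had 74.5 and 62.8 CPM with both drugs and 4.00 and 4.14 CPM with GSK343, with 4.07 ± 0.19 (SE, adjusted p = 9.57e-10). NR4A1, an orphan nuclear receptor, had 117 and 135 CPM with both drugs and 15.1 and 15.8 CPM with GSK343, with 3.03 ± 0.16 (SE, adjusted p = 1.99e-09). No library with both drugs overlapped a GSK343 library in any of the 4, which the rule for the largest rises required of ARC. The feedback inhibitors of MAP kinase signalling were mixed, with 8 of 16 tested higher and 4 lower. Among them DUSP8, a MAP kinase phosphatase, had 159 and 173 CPM with both drugs and 9.14 and 12.5 CPM with GSK343, with 3.93 ± 0.27 (SE, adjusted p = 9.98e-07). PHLDA1, a target of that pathway, had 72.8 and 58.5 CPM with both drugs and 7.58 and 6.70 CPM with GSK343, with 3.20 ± 0.20 (SE, adjusted p = 2.94e-08).

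**Figure D1:**
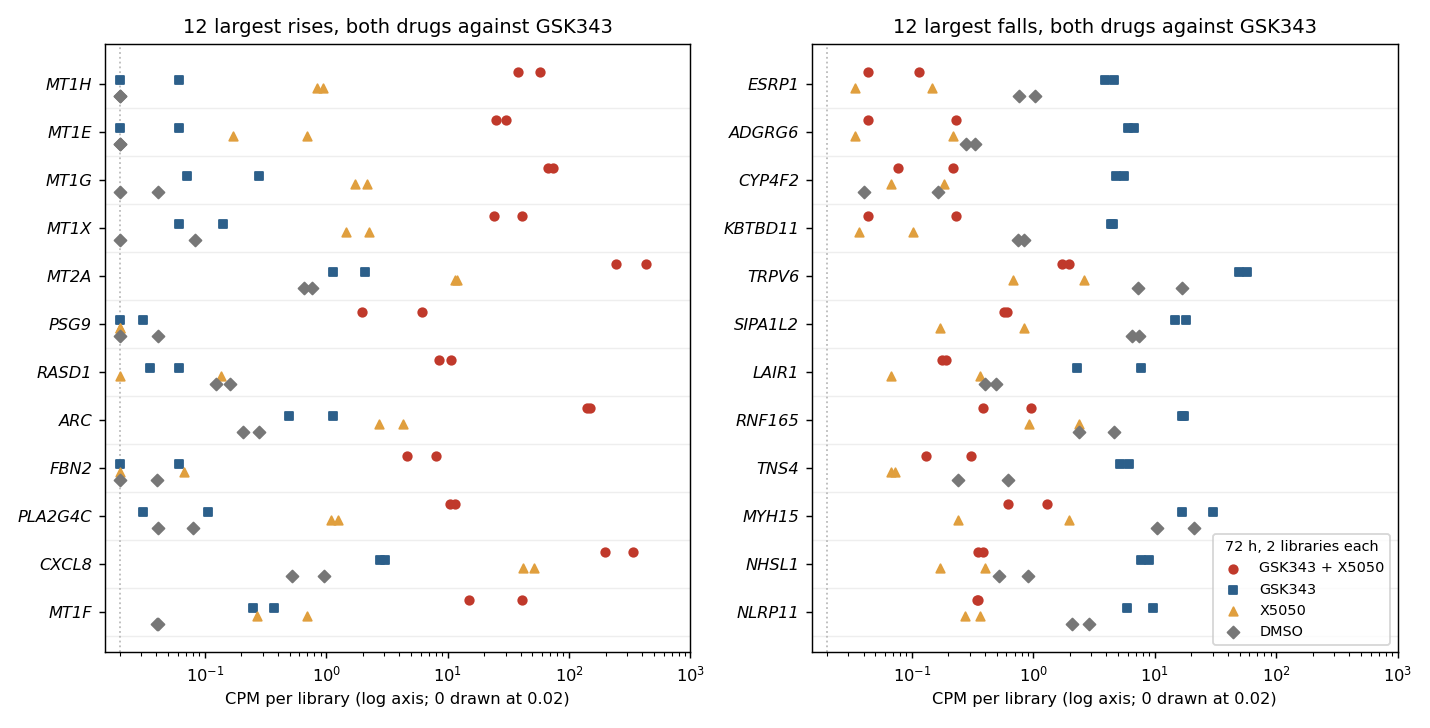
Levels in CPM per library on a log axis of the 12 genes with the largest rises (left) and the 12 with the largest falls (right), taken among called protein-coding genes whose mean level was 2 CPM or more; each symbol is a library, 2 per group, and 0 is drawn at 0.02. The libraries with both drugs and with GSK343 lie apart in each gene, which the rule required, and in the left panel X5050 alone lies between them for MT2A, ARC and CXCL8.

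Other genes among the 12 largest rises came from near silence. PSG9, a pregnancy-specific glycoprotein with close paralogs, gave 192 counts over the libraries with both drugs against 1, a ratio of 237 with a 95% counting interval of 42.1 to 9426. RASD1, a Ras-like GTPase, gave 466 counts against 3, a ratio of 192 with an interval of 65.3 to 935. FBN2, a fibrillin of the extracellular matrix, gave 304 counts against 2, a ratio of 188 with an interval of 51.6 to 1559. PLA2G4C, a cytosolic phospholipase, had 10.5 and 11.5 CPM with both drugs and 0.106 and 0.0309 CPM with GSK343, a log2 fold change of 7.29 ± 0.46 (SE, adjusted p = 1.78e-08).

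Heat shock chaperones were higher in 19 (82.6%) of 23 tested and lower in 1, with a median of 0.94. HSPH1, an Hsp110 exchange factor, had 282 and 247 CPM with both drugs and 36.1 and 47.2 CPM with GSK343, a log2 fold change of 2.67 ± 0.26 (SE, adjusted p = 1.64e-05). BAG3, a cochaperone of HSP70, had 67.04 and 70.97 CPM with both drugs and 19.6 and 23.3 CPM with GSK343, with 1.69 ± 0.16 (SE, adjusted p = 1.12e-06). The J-domain protein DNAJA1 had 187 and 184 CPM with both drugs and 67.98 and 81.7 CPM with GSK343, with 1.31 ± 0.15 (SE, adjusted p = 5.63e-06). These 3 did not overlap between groups. The inducible HSP70 genes HSPA1A and HSPA1B, near-identical copies, were the highest of the list but less secure. HSPA1A had 482 and 514 CPM with both drugs and 38.1 and 68.98 CPM with GSK343, with 3.22 ± 0.82 (SE, adjusted p = 0.0208). HSPA1B had 617 and 527 CPM with both drugs and 50.7 and 71.6 CPM with GSK343, with 3.23 ± 0.83 (SE, adjusted p = 0.0215). With any 1 of the 4 libraries left out, or with the groups at 72 h alone in the fit, the adjusted p of HSPA1A was 0.0648 to 0.128 and that of HSPA1B 0.0608 to 0.129. Without replicate 1 of GSK343, 10 members of the list were called higher.

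The HSPA1A promoter is shown because it holds the short core of the heat shock element that HSF1 binds, chr6:31815293-31815542 on the plus strand of RefSeq's GRCh38.p14, with GAANNTTC in capitals.
HSPA1A: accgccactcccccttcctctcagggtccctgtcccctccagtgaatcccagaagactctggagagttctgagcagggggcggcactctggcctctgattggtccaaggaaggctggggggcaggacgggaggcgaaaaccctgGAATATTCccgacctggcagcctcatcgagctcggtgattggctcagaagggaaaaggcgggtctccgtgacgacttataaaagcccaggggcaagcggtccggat
The match begins 106 bases before the start. It is found in 8 of 21 list promoters matched by name (38.1%) and in 5.85% of all 27305.

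Antioxidant genes driven by NRF2 were higher in 15 (57.7%) of 26 tested and lower in 2, with a median of 0.60. OSGIN1, an oxidative stress-induced growth inhibitor, had 82.3 and 84.4 CPM with both drugs and 9.25 and 7.01 CPM with GSK343, a log2 fold change of 3.36 ± 0.16 (SE, adjusted p = 1.21e-09). NQO1, a quinone reductase, had 111 and 114 CPM with both drugs and 42.8 and 55.6 CPM with GSK343, with 1.19 ± 0.15 (SE, adjusted p = 1.16e-05). FTL, the ferritin light chain that stores iron, had 3959 and 3981 CPM with both drugs and 842 and 880.4 CPM with GSK343, with 2.21 ± 0.14 (SE, adjusted p = 1.78e-08). The heavy chain FTH1 had 1768 and 1886 CPM with both drugs and 1017 and 1054 CPM with GSK343, with 0.82 ± 0.12 (SE, adjusted p = 5.16e-05). Both ferritin chains lay well apart between the groups. In the iron handling list 5 of 16 tested genes were higher and 5 lower, among the lower ones TFR2, a transferrin receptor, at -0.82 ± 0.11 (SE, adjusted p = 3.37e-05).

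The amino acid response moved the other way. ATF4 is the factor that raises amino acid synthesis and transport when the integrated stress response is on. Of its 37 listed targets, all tested, 24 (64.9%) were called lower and 2 (5.41%) higher with both drugs, with a median of -1.25. ASNS, which makes asparagine, had 348 and 336 CPM with both drugs and 1385 and 1482 CPM with GSK343, a log2 fold change of -2.07 ± 0.16 (SE, adjusted p = 1.67e-07). PSAT1, of serine synthesis, had 84.4 and 87.9 CPM with both drugs and 404 and 421 CPM with GSK343, with -2.26 ± 0.16 (SE, adjusted p = 9.15e-08). MTHFD2, a mitochondrial folate enzyme, had 246 and 243 CPM with both drugs and 782 and 845 CPM with GSK343, with -1.74 ± 0.15 (SE, adjusted p = 4.17e-07). Both libraries with both drugs were far below both GSK343 libraries in these 3 genes. Its relative MTHFD1L had 94.2 and 105 CPM with both drugs and 259 and 247 CPM with GSK343, with -1.34 ± 0.10 (SE, adjusted p = 1.42e-07).

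Aminoacyl-tRNA synthetases, which charge tRNAs with amino acids, were lower in 15 (75%) of 20 tested, the other 5 did not pass, and the median was -0.86. The lowest member of the list was WARS, for tryptophan, at 252 and 243 CPM with both drugs and 977 and 1034 CPM with GSK343, a log2 fold change of -2.02 ± 0.15 (SE, adjusted p = 9.15e-08). IARS, for isoleucine, had 506 and 497 CPM with both drugs and 1208 and 1289 CPM with GSK343, with -1.32 ± 0.11 (SE, adjusted p = 3.98e-07). MARS, for methionine, had 308 and 309.9 CPM with both drugs and 719 and 738 CPM with GSK343, with -1.24 ± 0.11 (SE, adjusted p = 3.98e-07). The groups did not overlap in any of these. CARS, for cysteine, had 128 and 121 CPM with both drugs and 291 and 280.4 CPM with GSK343, with -1.20 ± 0.13 (SE, adjusted p = 3.79e-06). Many synthetases are themselves ATF4 targets, so the 2 lists are not independent. The highest member stood at 0.28 on the log2 scale without passing the test.

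The ASNS promoter is shown because it holds the core of the amino acid response element that ATF4 binds, chr7:97872409-97872658 on the minus strand of RefSeq's GRCh38.p14, with TGATGNAA on either strand in capitals.
ASNS: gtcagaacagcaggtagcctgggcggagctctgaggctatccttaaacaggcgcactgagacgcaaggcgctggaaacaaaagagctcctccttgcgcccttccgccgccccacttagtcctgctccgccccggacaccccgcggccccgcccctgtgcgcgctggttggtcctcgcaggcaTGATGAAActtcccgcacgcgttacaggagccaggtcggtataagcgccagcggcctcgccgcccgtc
The match begins 68 bases before the start. Of 32 list promoters matched by name 4 (12.5%) hold these letters, against 3.19% of all 27305.

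Chaperones of the endoplasmic reticulum were lower in 10 (37%) of 27 tested and higher in 2. HYOU1, a large chaperone of the reticulum, had 319 and 368 CPM with both drugs and 860.3 and 783 CPM with GSK343, a log2 fold change of -1.26 ± 0.13 (SE, adjusted p = 3.56e-06). SEL1L, of the degradation machinery, had 90.5 and 82.7 CPM with both drugs and 262 and 292 CPM with GSK343, with -1.68 ± 0.20 (SE, adjusted p = 2.36e-05). In cholesterol synthesis and uptake 10 (35.7%) of 28 tested were lower and 1 higher, with FDPS at -0.88 ± 0.11 (SE, adjusted p = 1.64e-05). With 1 library left out the count of lower cholesterol genes dropped to 4 without replicate 1 of both drugs or replicate 2 of GSK343 and to 5 without replicate 2 of both drugs.

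DNA replication genes were lower in 30 (85.7%) of 35 tested, while the other 5 did not pass. The steps were small, with a median of -0.55. The origin licensing factor CDC6 had 66.7 and 61.2 CPM with both drugs and 124 and 107 CPM with GSK343, a log2 fold change of -0.85 ± 0.12 (SE, adjusted p = 4.74e-05). CDC45, of the replicative helicase, had 132 and 132 CPM with both drugs and 270.2 and 218 CPM with GSK343, with -0.88 ± 0.13 (SE, adjusted p = 5.88e-05). POLA1, the catalytic subunit of the primase-polymerase, had 46.2 and 53.9 CPM with both drugs and 87.5 and 86.1 CPM with GSK343, with -0.79 ± 0.12 (SE, adjusted p = 9.37e-05). In each, both libraries with both drugs were below both GSK343 libraries. The mitosis list, with 10 of 32 lower and 5 higher, moved less as a whole, and without replicate 1 of both drugs 6 were lower. TOP2A, the topoisomerase of dividing cells, had 362 and 415 CPM with both drugs and 723 and 726 CPM with GSK343, with -0.90 ± 0.13 (SE, adjusted p = 4.23e-05). HMMR, a spindle protein, had 62.6 and 63.4 CPM with both drugs and 103 and 102 CPM with GSK343, with -0.70 ± 0.10 (SE, adjusted p = 5.82e-05).

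Genes of cell cycle arrest were higher in 11 (57.9%) of 19 tested and lower in 3. GADD45B, a stress-induced regulator of MAP kinases, had 169.7 and 169 CPM with both drugs and 6.16 and 5.43 CPM with GSK343, a log2 fold change of 4.87 ± 0.17 (SE, adjusted p = 4.56e-11). CDKN1C, the inhibitor p57 of cyclin-dependent kinases, had 89.8 and 79.1 CPM with both drugs and 21.01 and 25.5 CPM with GSK343, with 1.86 ± 0.18 (SE, adjusted p = 1.37e-06). Among 30 regulators of apoptosis 11 (36.7%) were higher and 4 lower, with members for and against survival among the higher ones. XIAP, a caspase inhibitor, had 243 and 289 CPM with both drugs and 104 and 110.1 CPM with GSK343, with 1.31 ± 0.13 (SE, adjusted p = 1.41e-06). MCL1, an antiapoptotic BCL2 relative, had 877 and 1016 CPM with both drugs and 379.6 and 424 CPM with GSK343, with 1.24 ± 0.12 (SE, adjusted p = 1.87e-06). BMF, a BH3-only promoter of cell death, had 50.8 and 53.6 CPM with both drugs and 10.7 and 11.9 CPM with GSK343, with 2.21 ± 0.23 (SE, adjusted p = 3.44e-06).

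Globins were higher in 7 (87.5%) of 8 tested, the other 1 did not pass, and the median was 2.51. HBE1, the embryonic epsilon chain, had 1329.9 and 1028 CPM with both drugs and 306 and 238 CPM with GSK343, a log2 fold change of 2.12 ± 0.25 (SE, adjusted p = 6.96e-05). HBZ, the embryonic zeta chain, gave 57 and 70 counts with both drugs against 2 and 2 with GSK343, or 2.50 and 2.67 CPM with both drugs and 0.0708 and 0.0617 CPM with GSK343, with 5.20 ± 0.54 (SE, adjusted p = 2.84e-06). HBD, the delta chain, had 3.20 and 1.79 CPM with both drugs and 0.213 and 0.0926 CPM with GSK343, with 4.02 ± 0.55 (SE, adjusted p = 3.78e-05). HBE1 was abundant while HBZ and HBD stayed low in each library. HBA1, near-identical to HBA2, had 12.5 and 9.58 CPM with both drugs and 1.74 and 1.23 CPM with GSK343, with 2.90 ± 0.36 (SE, adjusted p = 1.86e-05). The fetal pair HBG1 and HBG2, also near-identical, had log2 fold changes of 1.82 (adjusted p = 0.00614) and 2.06 (adjusted p = 0.00876).

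Other erythroid genes did not share the rise of the globins. Of 38 tested 6 (15.8%) were higher and 9 (23.7%) lower, shares near those of all genes, and at most 1 was called higher without replicate 2 of GSK343 or replicate 1 of both drugs. GYPE, a glycophorin with close paralogs, had 22.6 and 19.95 CPM with both drugs and 61.95 and 45.6 CPM with GSK343, a log2 fold change of -1.34 ± 0.15 (SE, adjusted p = 5.68e-06). GFI1B, a repressor needed for the erythroid and megakaryocytic lines, had 35.1 and 31.97 CPM with both drugs and 62.02 and 44.4 CPM with GSK343, with -0.67 ± 0.14 (SE, adjusted p = 0.00165). TRIM10, a gene of late red cell development, had 0.351 and 0.420 CPM with both drugs and 3.19 and 4.17 CPM with GSK343, with -3.24 ± 0.44 (SE, adjusted p = 3.14e-05). GATA1 itself was slightly lower, at -0.42 (adjusted p = 0.00959).

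Among 14 megakaryocytic genes 5 were higher and 4 lower, and the pair that forms the platelet fibrinogen receptor parted. ITGB3, its beta chain, had 12.9 and 8.51 CPM with both drugs and 1.35 and 0.957 CPM with GSK343, a log2 fold change of 3.22 ± 0.28 (SE, adjusted p = 5.55e-07). ITGA2B, its alpha chain, had 9.11 and 12.7 CPM with both drugs and 47.4 and 37.6 CPM with GSK343, with -1.96 ± 0.19 (SE, adjusted p = 1.66e-06). The beta chain was higher and the alpha chain lower, each without overlap. In the adhesion list 9 of 25 tested were higher and 5 lower, with CD44, the hyaluronan receptor, at 53.98 and 33.2 CPM with both drugs and 10.8 and 10.2 CPM with GSK343, a log2 fold change of 2.05 ± 0.27 (SE, adjusted p = 4.75e-05). The integrin ITGAX, with 26.4 and 29.95 CPM with both drugs and 1.17 and 2.50 CPM with GSK343, had 3.92 ± 0.30 (SE, adjusted p = 1.25e-07).

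The largest falls were in genes of modest level, and their GSK343 and DMSO values are set beside them. ESRP1, a splicing regulator of epithelial cells, had 0.0438 and 0.114 CPM with both drugs and 4.64 and 3.86 CPM with GSK343, a log2 fold change of -5.63 ± 0.55 (SE, adjusted p = 1.57e-06). Its GSK343 against DMSO difference was 2.24 ± 0.39 (SE, adjusted p = 0.00146). TRPV6, an epithelial calcium channel, had 1.71 and 1.98 CPM with both drugs and 57.03 and 49.6 CPM with GSK343, with -4.84 ± 0.57 (SE, adjusted p = 0.000212), and its GSK343 against DMSO difference was 2.15 ± 0.48 (SE, adjusted p = 0.0212). SIPA1L2, a regulator of Rap GTPases, had 0.570 and 0.610 CPM with both drugs and 14.8 and 18.02 CPM with GSK343, with -4.79 ± 0.44 (SE, adjusted p = 1.43e-06), beside 1.24 ± 0.34 (SE, adjusted p = 0.0288) for GSK343 against DMSO. Both comparisons use the same GSK343 libraries, so a high GSK343 value moves them in opposite directions, and they are set side by side as descriptions. Against DMSO, both drugs gave -3.39, -2.70 and -3.55 for ESRP1, TRPV6 and SIPA1L2, so these 3 were below DMSO as well.

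Others among the 12 largest falls differed in where DMSO stood. CYP4F2, a fatty acid and vitamin K hydroxylase, had 0.219 and 0.0763 CPM with both drugs and 4.82 and 5.59 CPM with GSK343, a log2 fold change of -5.14 ± 0.52 (SE, adjusted p = 2.16e-06), and 0.0678 and 0.183 CPM with X5050 and 0.165 and 0.0400 CPM with DMSO. ADGRG6, an adhesion G protein-coupled receptor, had 0.0438 and 0.229 CPM with both drugs and 6.69 and 6.05 CPM with GSK343, with -5.45 ± 0.53 (SE, adjusted p = 1.56e-06). Cells with both drugs overlapped the DMSO libraries for CYP4F2. LAIR1, an inhibitory receptor of leukocytes, had 0.175 and 0.191 CPM with both drugs and 2.30 and 7.78 CPM with GSK343, with -4.75 ± 0.66 (SE, adjusted p = 5e-05). Its GSK343 replicates lay far apart, though both were above the cells with both drugs. TNS4 and NHSL1 had -4.64 ± 0.45 (SE, adjusted p = 1.44e-06) and -4.50 ± 0.42 (SE, adjusted p = 1e-06), KBTBD11 -4.94 ± 0.50 (SE, adjusted p = 2.01e-06), RNF165 -4.68 ± 0.48 (SE, adjusted p = 5.35e-06) and NLRP11 -4.47 ± 0.49 (SE, adjusted p = 4.2e-06). MYH15, a myosin heavy chain, had 0.613 and 1.30 CPM with both drugs and 16.7 and 30.1 CPM with GSK343, with -4.59 ± 0.75 (SE, adjusted p = 0.00165), and 0.58 ± 0.57 (SE, adjusted p = 0.591) for GSK343 against DMSO.

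REST target genes of neurons changed in both directions. Of 40 listed, 27 were tested, 10 (37%) were higher, beside 18.9% of all tested genes, and 6 (22.2%) lower, beside 20.5%, with a median of 0.30. The list summed to 278 and 276 CPM with both drugs and 155 and 163 CPM with GSK343. With X5050 against DMSO 10 were higher, where 5.34% of all genes were, and 2 lower. TUBB3, the neuronal tubulin, had 16.1 and 12.1 CPM with both drugs and 0.283 and 0.247 CPM with GSK343, a log2 fold change of 5.72 ± 0.36 (SE, adjusted p = 1.89e-08). L1CAM, a neural adhesion molecule, had 54.2 and 60.7 CPM with both drugs and 2.52 and 4.66 CPM with GSK343, with 3.99 ± 0.28 (SE, adjusted p = 1.16e-07). The syntaxin STX1A had 21.5 and 16.4 CPM with both drugs and 4.75 and 3.83 CPM with GSK343, with 2.14 ± 0.21 (SE, adjusted p = 1.22e-06). The groups did not overlap in any of these 3. The granin SCG3 was lower with both drugs, with 10.6 and 12.9 CPM with both drugs and 33.8 and 34.97 CPM with GSK343, a log2 fold change of -1.55 ± 0.14 (SE, adjusted p = 8.02e-07). TTCAGCACC, a half-site of the REST element, was found on either strand in 2 of 17 promoters matched by name (11.8%) and in 0.3% of all 27305.

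REST and its corepressors were called higher in 26.3% and lower in 21.1% of those tested, beside 18.9% and 20.5% of all tested genes. Of 19 tested 5 were higher and 4 lower, between -1.17 and 0.75 on the log2 scale, and with 1 library left out or the GC trend removed the counts dropped as far as 3 and 1. SIN3B, a scaffold for histone deacetylases, had 0.75 ± 0.11 (SE, adjusted p = 5.59e-05), and CTDSPL, a small phosphatase recruited by REST, -1.17 ± 0.12 (SE, adjusted p = 1.91e-06). Of 12 PRC2 genes 5 (41.7%) were higher and 1 (8.33%) lower, between -0.68 and 1.23. EZH1, the second methyltransferase of PRC2, had 83.7 and 88.7 CPM with both drugs and 42.05 and 31.3 CPM with GSK343, with 1.23 ± 0.16 (SE, adjusted p = 2.19e-05), beside -1.01 ± 0.16 (SE, adjusted p = 0.000669) for GSK343 against DMSO with the same GSK343 libraries. RBBP4, a histone-binding subunit, had -0.68 ± 0.10 (SE, adjusted p = 0.000104).

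Developmental factors held down by Polycomb were lower in 8 (50%) of 16 tested among 36 listed and higher in 1, with a median of -0.996, and without replicate 1 of both drugs 4 were lower. Over all tested genes 20.5% were lower and 18.9% higher. The list summed to 116 and 117 CPM with GSK343 and 86.6 and 72.8 CPM with DMSO. Members could pass the filter on low counts through the GSK343 libraries, so their count describes the list and does not test it. PAX5, the B cell factor, had 0.613 and 0.229 CPM with both drugs and 3.58 and 6.08 CPM with GSK343, a log2 fold change of -3.54 ± 0.43 (SE, adjusted p = 1.22e-05). PAX6, of eye and brain, had 5.17 and 6.68 CPM with both drugs and 21.7 and 16.7 CPM with GSK343, with -1.69 ± 0.37 (SE, adjusted p = 0.0041). WT1, of kidney and blood progenitors, had 20.02 and 22.9 CPM with both drugs and 44.03 and 42.6 CPM with GSK343, with -1.01 ± 0.12 (SE, adjusted p = 7.22e-06). GATA6, of endoderm, had -2.37 ± 0.49 (SE, adjusted p = 0.00126). In PAX5, PAX6 and WT1 both libraries with both drugs lay below both GSK343 libraries. Of 17 tested HOX genes 4 were lower and 1 higher, with HOXB9 at 128 and 146 CPM with both drugs and 233 and 264 CPM with GSK343, a log2 fold change of -0.86 ± 0.12 (SE, adjusted p = 3.95e-05), and HOXD8 at -3.15 ± 0.57 (SE, adjusted p = 0.000422), and without replicate 2 of both drugs 2 were lower. FGF18, the gene beside the silencers that the series studies, gave 33 and 25 counts with both drugs against 7 and 12 with GSK343, a log2 fold change of 1.93 ± 0.56 (SE, adjusted p = 0.0122). Of 9 tested genes of FGF18 and its neighbours 2 were higher and 3 lower. The adjusted p of FGF18 was 0.12 without replicate 1 of both drugs and 0.1 without replicate 1 of GSK343.

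**Figure D2:**
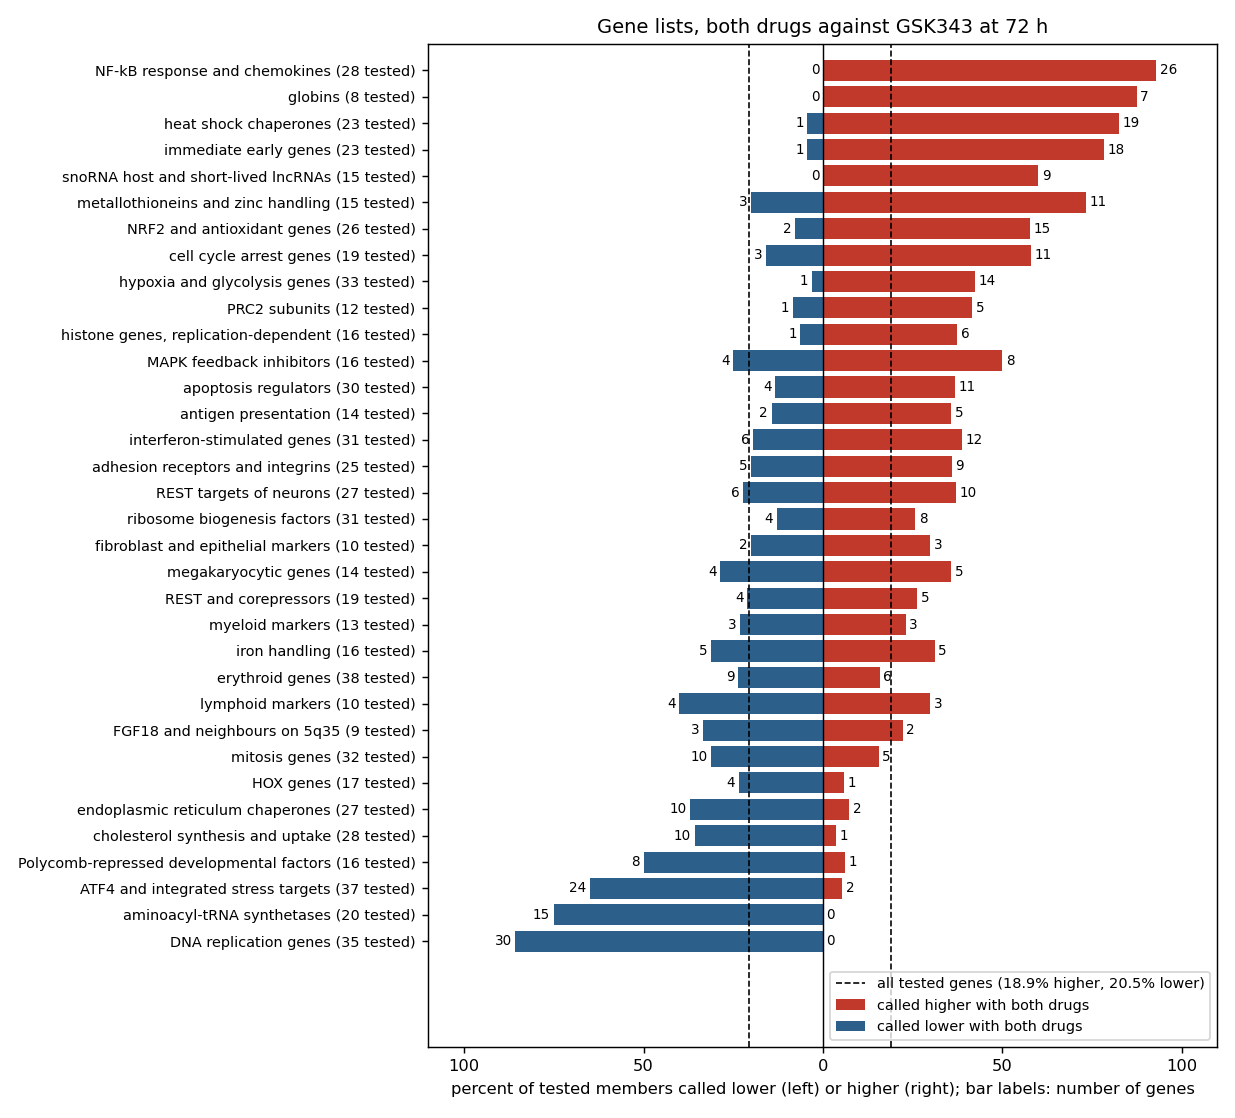
Share in percent of the tested members of each gene list called higher (right) or lower (left) with both drugs against GSK343, with the number of genes at each bar and dashed lines at the shares over all 19224 tested genes, 18.9% higher and 20.5% lower. NF-kB response genes, with 26 of 28 higher, stand at one end and DNA replication genes, with 30 of 35 lower, at the other.

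The remaining lists were mixed or moved by little. Interferon-stimulated genes were higher in 12 of 31 and lower in 6, with IRF1, a factor of that response, at 1.53 ± 0.17 (SE, adjusted p = 6.22e-06) and SLFN11, a restriction factor that acts on stalled replication forks, at -3.45 ± 0.32 (SE, adjusted p = 9.78e-07). In antigen presentation 5 of 14 were higher and 2 lower, with B2M, the class I light chain, at 0.96 ± 0.12 (SE, adjusted p = 1.53e-05) and the peptide transporter TAP2 at -0.93 ± 0.12 (SE, adjusted p = 2.19e-05). Hypoxia and glycolysis genes were higher in 14 of 33 and lower in 1, with PKM, the pyruvate kinase, at 1.02 ± 0.14 (SE, adjusted p = 4.65e-05), and 9 were higher without replicate 1 of GSK343. Ribosome biogenesis factors were higher in 8 of 31 and lower in 4, with 5 higher without replicate 2 of both drugs or either GSK343 replicate. Short-lived noncoding RNAs were higher in 9 of 15 and the other 6 did not pass, with NEAT1, the scaffold of paraspeckles, at 2521 and 2787 CPM with both drugs and 856 and 558 CPM with GSK343, a log2 fold change of 1.91 ± 0.24 (SE, adjusted p = 8.57e-05), and SNHG12 at 2.17 ± 0.18 (SE, adjusted p = 4.06e-07), and 5 were higher without replicate 1 of both drugs or replicate 2 of GSK343. The list of short-lived noncoding RNAs is mostly host genes of small nucleolar RNAs, and no RNA half-life was measured. Replication-dependent histone genes, whose mRNAs have no poly(A) tail, were higher in 6 of 16 and lower in 1, with HIST1H3D at 1.92 ± 0.17 (SE, adjusted p = 8.28e-07).

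Markers of other cell types moved in both directions at mostly low levels. The myeloid list summed to 57.7 and 69.1 CPM with both drugs and 98.7 and 131 CPM with GSK343, with 3 of 13 tested higher and 3 lower. The lymphoid list summed to 50.5 and 59.0 CPM with both drugs and 114 and 132 CPM with GSK343, with 3 of 10 higher and 4 lower. Fibroblast and epithelial markers summed to 3424 and 3494 CPM with both drugs and 1286 and 1755 CPM with GSK343, nearly all from VIM and the keratins KRT8, KRT18 and KRT19, while the collagen COL1A2 had 0.920 and 0.687 CPM with both drugs and 5.38 and 1.82 CPM with GSK343. VIM, the intermediate filament of mesenchymal cells that K562 also expresses, had 2148 and 2342 CPM with both drugs and 565 and 921 CPM with GSK343, a log2 fold change of 1.60 ± 0.23 (SE, adjusted p = 0.000286). The part of these markers in the other results was not tested.

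X5050 without GSK343 had fewer genes called at the same dose and time. Replicates differed beyond sampling noise, with a chi-square over degrees of freedom of 25.2 for X5050 and 32.6 for DMSO. It was 13.4 with both drugs and 16.7 with GSK343, and the part of this in the counts was not tested. With X5050 against DMSO 2415 of 19224 genes (12.6%) passed, 1026 (5.34%) higher and 1389 (7.23%) lower. By over 1 log2 unit 311 (1.62%) were higher and 453 (2.36%) lower. In other fits 815 passed without replicate 1 of X5050 and 617 with those 2 groups alone in the fit. This comparison shares no library with the one above, though both enter one fit and share its variance estimate. Across the 19224 genes the log2 changes of both had a Pearson r of 0.44 and a Spearman rho of 0.32, a description over genes that are not independent. Of the 1452 genes called in both, which are 19.2% of the calls with GSK343 present and 60.1% of those without, 1224 (84.3%) had the same sign.

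The test of the difference between the 2 effects passed for 3613 genes (18.8%). In 1875 (9.75%) the change was more positive with GSK343 present and in 1738 (9.04%) more negative, by over 1 log2 unit in 938 (4.88%) and 754 (3.92%). All 228 genes called in both with opposite sign passed it, which 2 opposite calls in the same fit make nearly certain. Of 218 genes called in both with the same sign that passed it, 195 had the larger change with GSK343 present. On simulated counts, 93 of 100 differences of 4-fold and 46 of 100 of 2-fold were recovered among 18785 genes, so smaller differences could be missed. These differences were placed only in genes averaging 2 CPM or more, so recovery in lower genes was not tested.

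**Figure D3:**
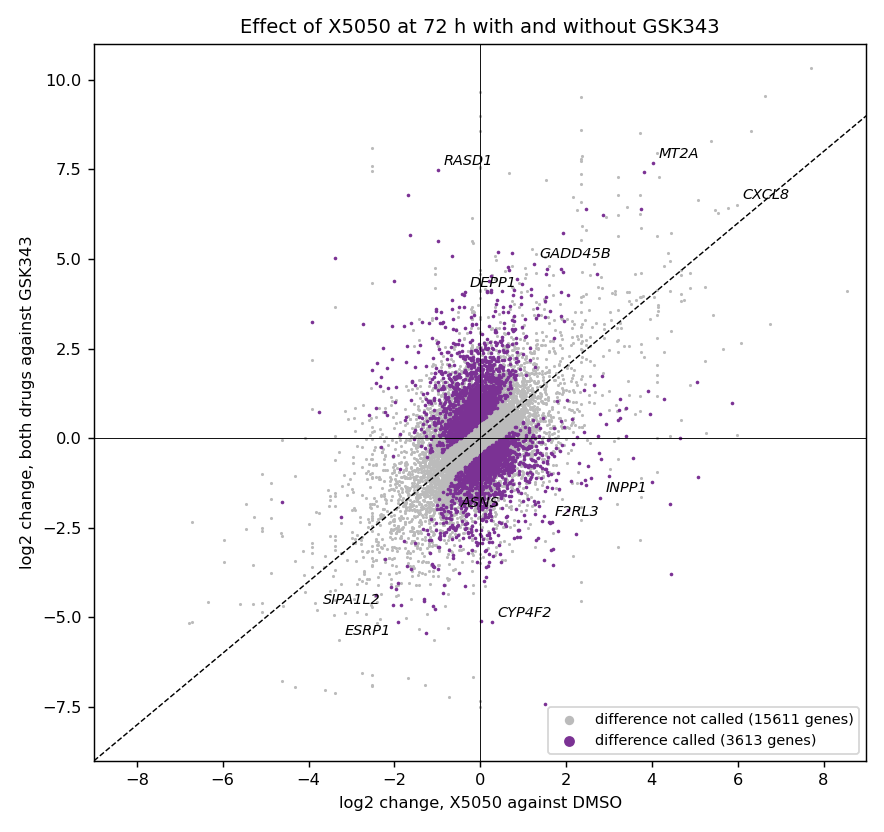
Fitted log2 change of each of the 19224 tested genes with both drugs against GSK343 (vertical) and with X5050 against DMSO (horizontal); the dashed line marks equal change, and the 3613 genes whose difference passed the test are coloured. CXCL8 lies near the line, and RASD1, DEPP1 and INPP1 lie far from it.

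Of the protein-coding genes that passed and averaged 2 CPM or more over the 8 libraries, RASD1 had the largest positive difference, at 8.46. It had 0.136 and 0 CPM with X5050 and 0.124 and 0.160 CPM with DMSO, where X5050 alone gave -0.98 ± 0.91 (SE, adjusted p = 0.538). Its fitted values depend on a small prior count, since the GSK343 libraries held 3 counts, and its difference was 4.41 with counts of both strands and 12.57 without replicate 1 of X5050. DEPP1, a gene of the FOXO and fasting response, had 32.6 and 18.9 CPM with both drugs and 1.70 and 1.36 CPM with GSK343, and 2.61 and 1.97 CPM with X5050 and 2.27 and 3.64 CPM with DMSO. Its difference was 4.44 ± 0.44 (SE, adjusted p = 1.68e-05). RGS2, which quenches Gq signalling, had 26.6 and 13.9 CPM with both drugs and 1.59 and 2.62 CPM with GSK343, and 1.90 and 1.83 CPM with X5050 and 2.44 and 4.40 CPM with DMSO, a difference of 4.13 ± 0.51 (SE, adjusted p = 0.00012). In DEPP1 and RGS2 the libraries with both drugs stood above all others, and X5050 alone was no higher than the upper DMSO library. The zinc exporter SLC30A1 had 68.7 and 48.7 CPM with X5050 and 25.5 and 48.6 CPM with DMSO, a difference of 4.02 ± 0.49 (SE, adjusted p = 0.00102). HSPA1A had 112 and 83.1 CPM with X5050 and 46.95 and 312 CPM with DMSO, so its difference of 4.10 ± 1.11 (SE, adjusted p = 0.0471) touches a DMSO replicate 2 that stood far above replicate 1. Without that library the difference was 2.15 (adjusted p = 0.019), and without any 1 of the libraries with both drugs, GSK343 or X5050 it did not pass. Of the 15 alternatives 12 ended the call of HSPA1A and 11 that of HSPA1B.

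On the negative side several genes changed sign. INPP1, an inositol phosphate phosphatase, had 2.06 and 1.68 CPM with both drugs and 4.85 and 6.94 CPM with GSK343, and 3.63 and 4.31 CPM with X5050 and 0.454 and 0.680 CPM with DMSO, a difference of -4.46 ± 0.44 (SE, adjusted p = 1.68e-05). PALD1, paladin, had 2.19 and 2.33 CPM with both drugs and 8.89 and 9.20 CPM with GSK343, and 0.780 and 0.768 CPM with X5050 and 0.165 and 0.200 CPM with DMSO, a difference of -4.05 ± 0.47 (SE, adjusted p = 5.95e-05). The protease-activated receptor F2RL3 had 4.73 and 10.3 CPM with both drugs and 30.8 and 45.3 CPM with GSK343, and 33.8 and 27.7 CPM with X5050 and 11.8 and 8.44 CPM with DMSO, a difference of -3.94 ± 0.43 (SE, adjusted p = 0.000166). In these 3 X5050 lay above DMSO when given alone and the combination lay below GSK343. TRIM67, a ubiquitin ligase, had a difference of -3.99 ± 0.63 (SE, adjusted p = 0.00296), TMEM154 of -3.995 ± 0.83 (SE, adjusted p = 0.0182) and VLDLR, a lipoprotein receptor, of -3.92 ± 0.88 (SE, adjusted p = 0.0115). With 1 library left out the adjusted p rose as far as 0.0798 for TMEM154, without replicate 1 of both drugs, and 0.0554 for VLDLR, without replicate 2 of DMSO, and TMEM154 was also lost without replicate 2 of both drugs or either DMSO replicate and with the 4 groups at 72 h alone in the fit (0.0653), VLDLR without replicate 1 of both drugs. The GSK343 replicates of TRIM67 and TMEM154 lay far apart.

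**Figure D4:**
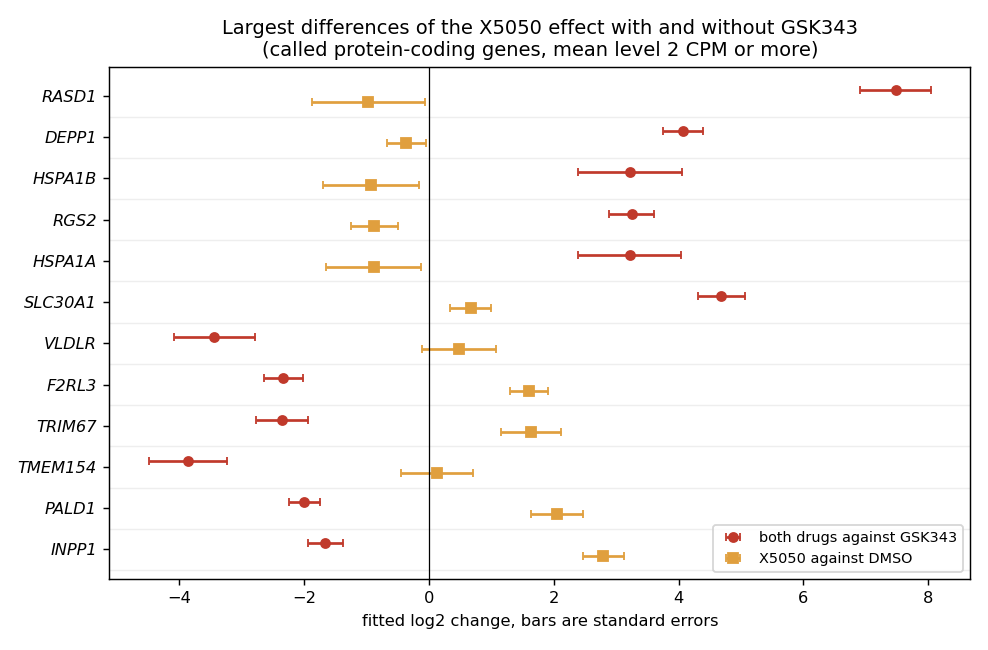
Fitted log2 change with its standard error, in log2 units, of the 12 genes with the largest differences of the X5050 effect (6 each way, among called protein-coding genes whose mean level over the 8 libraries was 2 CPM or more), with both drugs against GSK343 (circles) and with X5050 against DMSO (squares). The upper 6 genes changed more upward with GSK343 present, RASD1 first, and the lower 6 more downward, down to INPP1 at -1.66 with GSK343 and 2.79 without.

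Over all tested genes the difference passed upward, with the change more positive when GSK343 was present, in 9.75% and downward in 9.04%. By list, it passed upward for 10 of 15 genes of the list of small nucleolar RNA hosts and short-lived noncoding RNAs. It passed upward for 12 of 23 heat shock chaperones and 10 of 19 arrest genes, where 1 more passed downward. NF-kB genes had 12 of 28 upward and 1 downward, and immediate early genes 9 of 23 upward and 4 downward. ATF4 targets had 18 of 37 downward and 2 upward, and aminoacyl-tRNA synthetases 10 of 20 downward. The metallothionein and zinc list had 3 of 15 upward (MT2A, SLC30A1 and MTF1) and 1 downward (SLC39A14), so no MT1 gene passed. For metallothioneins X5050 alone was itself strong: MT2A had 11.5 and 11.8 CPM with X5050 and 0.661 and 0.760 CPM with DMSO, a log2 fold change of 4.03 ± 0.38 (SE, adjusted p = 9.74e-05), and the difference of 3.65 ± 0.62 (SE, adjusted p = 0.00235) passed, with an adjusted p of 0.0547 without replicate 1 of DMSO and 0.0986 without replicate 2. CXCL8 had 51.2 and 41.9 CPM with X5050 and 0.950 and 0.520 CPM with DMSO, a log2 fold change of 5.98 ± 0.30 (SE, adjusted p = 2.95e-07), and its difference of 0.53 ± 0.45 (SE, adjusted p = 0.458) did not pass. For endoplasmic reticulum chaperones X5050 alone lowered 16 of 27, where 7.23% of all tested genes were lower. When it was added to GSK343, 10 were lower and 2 higher, beside 20.5% and 18.9% of all tested genes. Calls in one setting and not in the other do not show a difference, and its own test passed for 5 upward and 2 downward in this list. The downward share was below that of all tested genes.

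The earlier libraries with both drugs give levels at 8 h and 24 h. No GSK343 library of 8 h or 24 h was used here to set against them. Reads mapping to several places made up 10.8% and 13.3% of reads at 8 h, and 26.7% and 26.1% with both drugs at 72 h. Both 24 h libraries also had lower shares than any 72 h library. Time therefore cannot be told apart from other differences between these libraries, and their part in the levels was not tested. MT2A averaged 18.3 ± 3.27 CPM at 8 h, 43.02 ± 0.592 CPM at 24 h and 336 ± 129 CPM at 72 h (SD, n = 2 each). CXCL8 averaged 180.4 ± 9.79 CPM at 8 h, 1145 ± 14.5 CPM at 24 h and 266 ± 94.6 CPM at 72 h (SD, n = 2 each), and KLF6 169 ± 3.09 CPM at 8 h, 1167 ± 22.8 CPM at 24 h and 734 ± 70.7 CPM at 72 h (SD, n = 2 each). Both were highest at 24 h, while MT2A was highest at 72 h. ASNS averaged 1043 ± 28.1 CPM at 8 h, 948 ± 38.4 CPM at 24 h and 342 ± 8.41 CPM at 72 h (SD, n = 2 each), and WARS 642 ± 60.9 CPM at 8 h, 723 ± 37.9 CPM at 24 h and 247 ± 5.94 CPM at 72 h (SD, n = 2 each). GADD45B averaged 9.35 ± 0.409 CPM at 8 h, 9.56 ± 0.335 CPM at 24 h and 169.6 ± 0.182 CPM at 72 h (SD, n = 2 each), alike at 8 h and 24 h and far higher at 72 h.

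**Figure D5:**
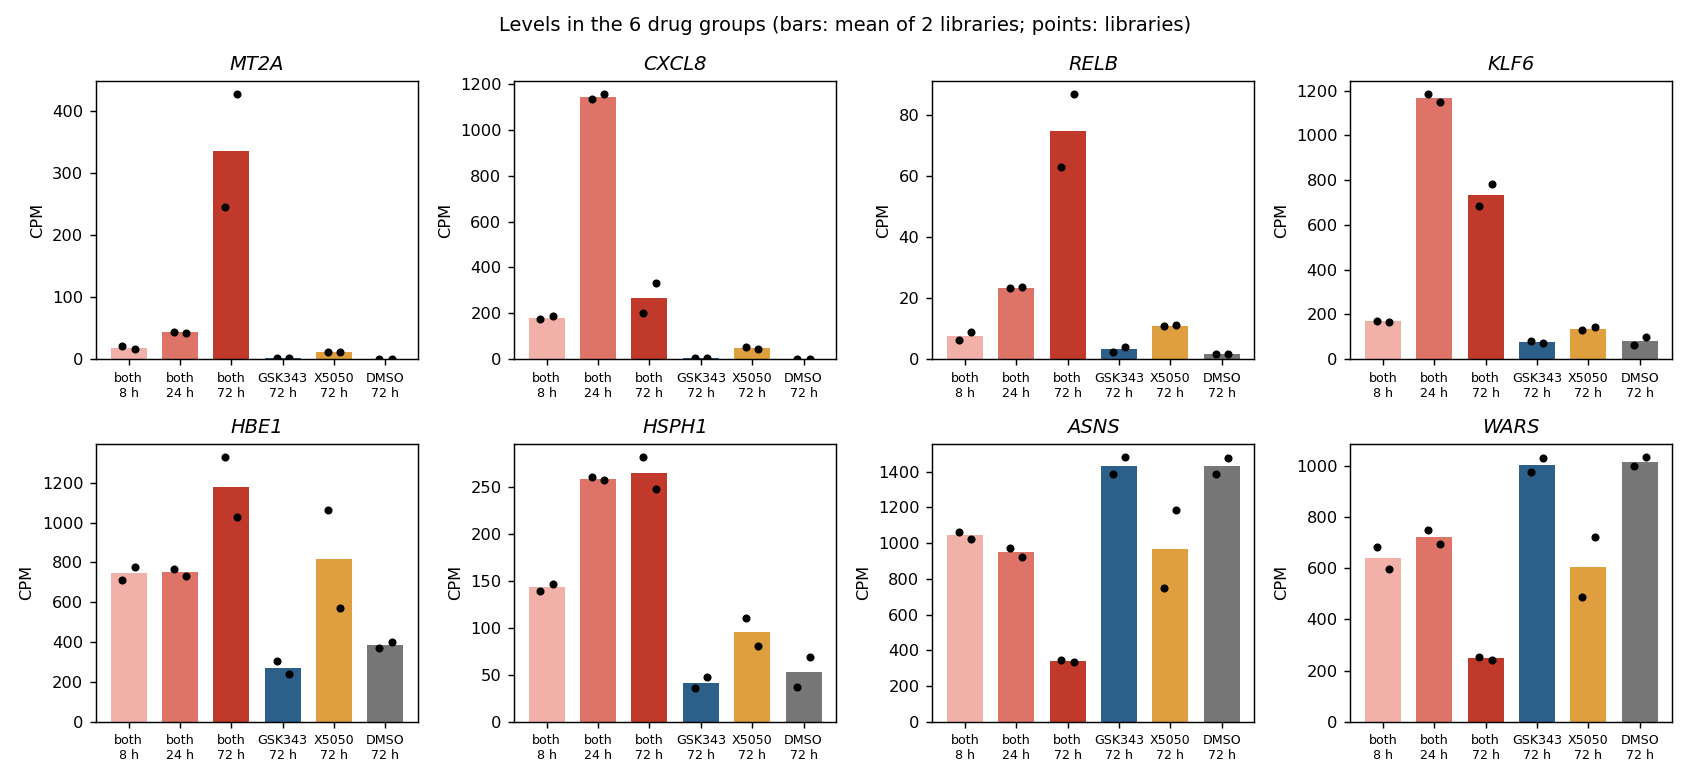
Level in CPM of 8 genes in the 6 drug groups, both drugs at 8 h, 24 h and 72 h, then GSK343, X5050 and DMSO at 72 h; bars are means of 2 libraries and points the libraries. MT2A and RELB were highest with both drugs at 72 h, CXCL8 and KLF6 at 24 h, and ASNS and WARS were lowest with both drugs at 72 h.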

How the data were processed

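The deposited drug libraries are per-gene read counts that the authors made with STAR 2.7.3a after Trimmomatic 0.38, against hg19, per the submitters' processing notes; the libraries are stranded total RNA with rRNA removed, per the labels' protocols. The annotation release is not given in the sources used here. Counts are from the reverse strand column, 8.01 to 9.77 times the forward column in total. Multiply mapped reads are not counted. Names, gene types and GC content came from GENCODE on GRCh38 by gene identifier, for 96.2% of tested genes; promoters came from RefSeq. The 8 excision libraries were left out.

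All 12 drug libraries were fitted in edgeR 4.0.16 (R 4.3.3) with 1 mean per group, filterByExpr (minimum count 10), TMM factors and the robust quasi-likelihood test. Benjamini-Hochberg adjustment ran over 19224 genes at a threshold of 0.05. Replicates varied with a biological coefficient of 0.129, estimated on 6 degrees of freedom. Standard errors are log2 fold changes divided by the root of the F statistic. The fit was tested on simulated data of 18785 genes, where it recovered 99 of 100 changes of 4-fold and 81 of 100 of 2-fold. Beside these it called 17 unchanged genes, a larger share of its calls than the threshold of 0.05. The test of the difference called 9 unchanged genes beside the 93 and 46 it recovered, again a larger share. Changes were placed only in genes averaging 2 CPM or more, and in far fewer genes than the real data call. Recovery at lower levels or under such broad change was not tested.

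The members and the 34 gene lists (845 of 863 names found) were chosen with earlier results of these data known. By rule the text names the 12 largest rises and falls (called, protein-coding, mean level 2 CPM or more, groups apart), the 6 largest differences each way (called, protein-coding, mean level over the 8 libraries 2 CPM or more), up to 4 called members of each list by lowest p, and EZH2, REST and FGF18. MTF1, NFKBIA, GATA1, HBG1, HBG2, COL1A2 and the SLC39A8, SLC39A14 and SLC30A10 transporters are named outside this rule. One gene this rule names is not reported here. Replicates of a group differed beyond sampling noise (chi-square over degrees of freedom of 6.74 to 32.6). The alternatives used counts of both strands, fewer groups in the fit, each library left out, a GC correction, a replicate block, no low-count filter, RLE size factors, or DESeq2 1.42.0 as the test.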

Additional observations from a re-analysis of the deposited data

Results flagged for a closer look

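A difference between the effect of X5050 with and without GSK343 that passes its own test marks a gene for a closer look, and 75 of the genes described above did so. The values below are that difference on the log2 scale, positive where the change was more upward with GSK343 present, from edgeR's quasi-likelihood test at an adjusted p of 0.05. Over all tested genes 18.8% passed it. Most genes described above were chosen by this difference, or by low p or large change with X5050 added to GSK343, which enters it. The count of 75 is therefore not compared with that share.

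Among genes of metals, stress and inflammation the difference was 3.65 for MT2A, 4.02 for SLC30A1, 0.65 for MTF1, -0.81 for SLC39A14, 2.42 for NFKBIA, 1.84 for RELB and 1.40 for SOD2. It was 4.16 for HSPA1B, 4.10 for HSPA1A, 1.82 for HSPH1, 1.73 for BAG3 and 0.88 for DNAJA1. Among antioxidant and iron genes it was 2.06 for OSGIN1, 1.53 for FTL and 1.34 for FTH1. For HSPA1A and HSPA1B DMSO replicate 2 lay far above replicate 1, and without replicate 2 the difference was 2.15 for HSPA1A and 2.12 for HSPA1B. With any 1 of the 6 libraries of both drugs, GSK343 or X5050 left out, the adjusted p of these 2 was between 0.103 and 0.164.

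Signalling and early response genes gave 8.46 for RASD1, which rests on 3 counts with GSK343 and was 4.41 with counts of both strands and 12.57 without replicate 1 of X5050, 3.60 for ARC, 2.20 for FOSB, 2.53 for KLF6 and 2.68 for NR4A1. DUSP8 gave 2.97, DEPP1 4.44 and RGS2 4.13. Arrest and survival genes gave 3.61 for GADD45B, 2.43 for CDKN1C, 2.26 for BMF and 0.94 for XIAP.

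Globins gave 4.78 for HBZ, 4.44 for HBD and 2.86 for HBA1, and the REST targets 3.79 for TUBB3, 1.94 for L1CAM and 1.89 for STX1A. EZH1 gave 1.76 and SIN3B 0.59. SNHG12 gave 2.19, NEAT1 1.37 and HIST1H3D 1.93. IRF1 gave 1.60, B2M 0.83, KRT19 1.04 and KRT8 0.51, a call that 14 of the 15 alternatives ended.

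On the negative side the amino acid genes gave -2.31 for PSAT1, -1.501 for ASNS, -1.08 for MTHFD2 and -0.65 for MTHFD1L, and the tRNA synthetases -1.27 for WARS, -0.93 for IARS, -0.78 for MARS and -0.70 for CARS. HYOU1 gave -0.58, SEL1L -1.12 and FDPS -1.11. In the cell cycle POLA1 gave -0.83 and HMMR -0.99.

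Lineage and developmental genes gave -2.46 for ITGA2B, -3.69 for TRIM10, -1.11 for GYPE, -0.67 for GFI1B, -1.49 for WT1 and -0.51 for HOXB9. CTDSPL gave -0.87, TAP2 -1.14 and SLFN11 -3.64. Among the genes with the largest falls or differences the values were -5.41 for CYP4F2, -4.17 for ADGRG6, -3.70 for LAIR1, -3.59 for RNF165 and -3.18 for NHSL1. INPP1 gave -4.46, PALD1 -4.05, TMEM154 -3.995, TRIM67 -3.99, F2RL3 -3.94 and VLDLR -3.92.

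Of these 75 calls 54 held under all 15 alternatives, and none of the 75 changed sign under any of them. Beside KRT8, the calls of HSPA1A and HSPA1B were ended by 12 and 11 of them, those of HOXB9, HYOU1, LAIR1 and MTF1 by 6 each, GFI1B and TMEM154 by 5, SIN3B and SEL1L by 3, and MT2A, DNAJA1 and VLDLR by 2. For 7 others 1 left-out library ended the call. The adjusted p was 0.0539 for ARC and 0.0516 for L1CAM without replicate 2 of DMSO, 0.0842 for NEAT1 without replicate 1 of DMSO, and 0.0589 for CARS without replicate 2 of both drugs. Without replicate 2 of X5050 it was 0.0842 for NHSL1, 0.0651 for CYP4F2 and 0.434 for ADGRG6, and 0.45 for LAIR1.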

How the results depend on the processing

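Of the 163 named genes, 155 kept the call and direction of X5050 added to GSK343 under all 12 alternatives, and the other 8 (HSPA1A, HSPA1B, CD14, FGF18, HOXC13, STK10, SCD and HOXB8) kept the direction but lost the call under at least 1, mostly with a library left out. For the comparison with GSK343 the calls numbered 6936 with DESeq2, 7550 with RLE size factors, 7634 with the replicate block, 7262 with the GC trend removed (which held 85.8% of the main calls), 6444 with the 4 groups at 72 h and 8286 with the 2 groups alone. Leaving out 1 library gave 5218 to 5624 calls, 2600 to 3076 of them lower. The labels do not say whether replicate numbers pair cultures. Same-numbered deviations had r = 0.09 between both drugs and GSK343. Over the 4 groups at 72 h r ran from -0.03 for X5050 and DMSO to 0.23 for GSK343 and DMSO, and a low r cannot exclude pairing. The block changed no call named for X5050 added to GSK343. It gave 2485 calls for X5050 alone and 3685 for the difference, and ended the difference calls of HSPA1A (adjusted p = 0.0673), HSPA1B (0.0753) and KRT8 (0.0562), which most other alternatives ended too. With the 4 groups at 72 h these had 0.13, 0.129 and 0.0983, with the GC trend removed 0.0633, 0.0629 and 0.251, without the filter 0.1, 0.0975 and 0.257, and with counts of both strands 0.0703, 0.0562 and 0.0826, in the same order.

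X5050 alone against DMSO was less settled. With the 4 groups at 72 h it had 1313 calls, 547 higher and 766 lower, and with the 2 groups alone 617, 290 higher and 327 lower, 190 and 191 of them by over 1 log2 unit. Without the filter 1714 were higher. Leaving out 1 library gave 815 to 3121 calls, 433 to 1397 higher and 382 to 1786 lower, with 219 to 589 higher and 144 to 516 lower by over 1 log2 unit, the lowest counts of calls without replicate 1 of X5050.

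The difference of the effects had 2314 calls with the 4 groups at 72 h, 1020 of them lower, and 2651 lower without the filter, 1233 by over 1 log2 unit. Leaving out 1 library gave 2296 to 4854 calls, 1117 to 2493 higher and 994 to 2361 lower, with 513 to 1247 lower by over 1 log2 unit. EZH2's difference, which did not pass, ran from -0.28 to 0.14 with 1 library left out and turned positive without replicate 1 of GSK343 (0.05) or replicate 2 of DMSO (0.14). Fits with the 2 groups alone cannot give this difference. A fit with 1 library in a group assumes that it varies like the other groups. The cause of these moves was not tested. Depth limits the ratios that rest on 1 to 3 counts over a group, such as that of PSG9, with a counting interval of 42.1 to 9426.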

Other observations

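Small structural RNAs stood higher with both drugs than with GSK343. Among 112 tested small nucleolar RNAs 39 were called higher and 1 lower, with a median log2 fold change of 0.93, and with X5050 against DMSO 1 passed, lower. Among 68 small nuclear RNAs 19 were higher and 1 lower, with a median of 1.09, and of 8 small Cajal body RNAs 6 were higher, with a median of 1.35. Of 81 microRNA genes 18 were higher and 2 lower, and of 90 genes of other small RNA types 11 were higher and 2 lower. Over all tested genes 18.9% were called higher and 20.5% lower. The share of microRNA genes called higher was near that of all genes, and that of the other types was below it. Many of these have near-identical copies, and the share of multiply mapping reads was also higher with both drugs, at 26.7% and 26.1% against 19.3% and 20.8% with GSK343. Its part in these counts was not tested.

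Calls were more frequent among protein-coding genes, at 45.7% of 13465, than among long noncoding genes, at 25% of 3341, and pseudogenes, at 21.4% of 1315. They were also more frequent at higher levels, at 51.4% of 2257 genes over 100 CPM and 20.7% of 4667 genes under 1 CPM.

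Some myeloid markers at very low level were higher with both drugs. CD68 had 0.438 and 0.305 CPM with both drugs and 0.0354 and 0.0309 CPM with GSK343, and ITGAM had 2.28 and 3.28 CPM with both drugs and 0.886 and 0.679 CPM with GSK343. CD33 and LYZ went the other way, with CD33 at 13.9 and 17.5 CPM with both drugs and 37.4 and 48.9 CPM with GSK343, and LYZ at 11.1 and 10.3 CPM with both drugs and 23.2 and 32.7 CPM with GSK343.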
